A study of Mus musculus with 8 samples.

Results

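A set of 10 genes for receptors and signaling proteins that position B cells in lymphoid tissue, called here migration and confinement genes, was followed in B cells on their way into the germinal center (GC). The genes were taken by symbol from the deposited count table, and all 10 were found among its 24259 symbols. They comprised the sphingosine-1-phosphate (S1P) receptors S1pr2 and S1pr4, the chemokine receptors Cxcr5, Ccr7, Cxcr4 and Ccr6, the oxysterol receptor Gpr183 (also known as EBI2), the G protein subunits Gna13 and Gnai2, and Arhgef1, the exchange factor that acts after Gα13. All 10 also passed the filter on low counts that left 12744 genes for testing.

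The libraries were made from NP-binding, IgD-low, B220+ B cells of C57BL/6 lymph nodes, sorted 3 days after immunization with NP-OVA. In the HET group (4 libraries) B cells were helped by transferred OT-II T cells of the genotype Cd4-cre × Bcl6 fl/+ (1 floxed allele), and those of the WT group (4 libraries) by Cd4-cre OT-II T cells. All recipients were SAP-deficient, and the study states that their own T cells cannot support GC formation. Only T cells were transferred, so the sequenced B cells were those of the recipients. The Cd4-cre and floxed Bcl6 alleles belonged to the transferred T cells and not to these B cells. The 4 libraries of a group, each of about 200 cells, were sorted from 1 pool of recipients. The p-values, SE and intervals of fold changes therefore measure the spread between sorted aliquots, and an effect of the pool cannot be told apart from that of the group.

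A B cell finds its place in a lymph node by reading several gradients at once. CXCR5 draws it into the follicle toward CXCL13, CCR7 draws it to the T cell zone toward CCL19 and CCL21, EBI2 guides it to the outer follicle and the border with the T cell zone, and CXCR4 answers CXCL12 in the GC dark zone. These receptors signal mainly through Gαi proteins, of which Gnai2 encodes a major form in lymphocytes. S1PR2 works the other way: through Gα13 and ARHGEF1 it opposes migration and holds GC B cells in the follicle center. S1pr2 and loss of Gpr183 are known features of GC B cells.

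Library depth ranged from 6652386 to 12559189 counts. All 10 B cell markers were present, and their summed level was 22152 to 23393 CPM (counts scaled to library size) in HET and 25281 to 27988 CPM in WT, lower in HET for 10 of 10 markers. Markers of naive follicular B cells, of which Ighd was part of the sort, summed to 4071 to 4816 CPM in HET and 5111 to 5436 CPM in WT, again lower in HET for 9 of 9. Markers of GC B cells summed to only 221 to 251 CPM in HET and 138 to 238 CPM in WT. Of the 8 that could be tested, 7 had a higher mean estimate in HET, and Lmo2 a lower 1 (log2 fold change -0.30; unadjusted p = 0.0429; adjusted p = 0.667, edgeR). Gcsam reached no more than 2.7 CPM. Bcl6, which was not in this marker list, was also lower in HET (log2 fold change -0.50; unadjusted p = 0.0344; adjusted p = 0.629, edgeR). The T cell list summed to 433 to 835 CPM in HET and 284 to 622 CPM in WT, with Cd4 near 0 in all libraries (0 to 0.758 CPM) and Cd8b1 at 12.2 to 123 CPM; the estimate was higher in HET for 17 of 17 tested T cell genes and 7 of 8 NK cell genes. HET replicate 1 stood apart in markers of antibody-secreting cells (2580 CPM, with all libraries between 565 and 2580 CPM), and WT replicate 2 in myeloid markers (472 CPM, with all libraries between 45.9 and 472 CPM), of which Csf3r and Clec4a2 had at most 3 counts.

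In the comparison of HET with WT by the quasi-likelihood test of edgeR, 0 of the 10 genes had an adjusted p under 0.05, where 0.0235% of all tested genes passed. DESeq2 also called 0 of the 10, beside 0.687% of the genes it tested. At an unadjusted p under 0.05 in edgeR, 2 genes were higher in HET (S1pr2 and Cxcr5), beside 3.34% of all genes, and 1 was lower (Arhgef1), beside 3.88% of all genes. In none of the 10 did the libraries of the groups stay apart. Over all genes, the HET libraries all lay above the WT libraries in 1.99% and all below in 2.62%. Of the log2 fold changes, 5 were positive and 5 negative, with a median of -0.01 beside -0.00 over all genes tested.

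**Figure D1:**
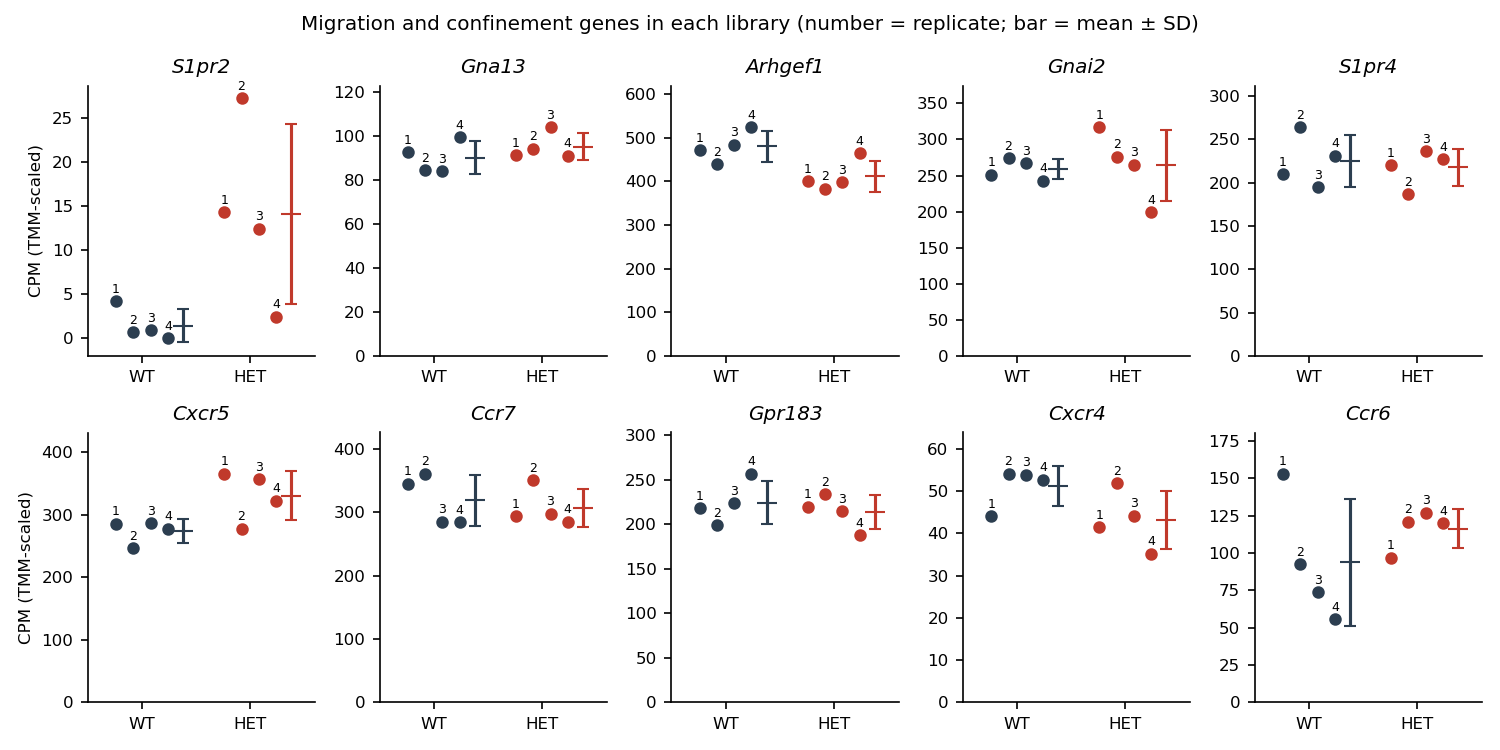
CPM after TMM scaling (vertical axis, linear) of each gene in the 4 WT and 4 HET libraries; numbers above the points are replicates and the bars are mean ± SD. In S1pr2, 3 HET libraries lie between 12.4 and 27.2 CPM and the WT libraries between 0 and 4.18 CPM; in the other genes the ranges of the groups also overlap.

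S1pr2 was the gene of the set with the largest difference between groups and the lowest level. It was read 178, 210, 83 and 16 times in HET replicates 1 to 4, corresponding to 14.3, 27.2, 12.4 and 2.43 CPM. In WT replicates 1 to 4 it was read 44, 7, 7 and 0 times, corresponding to 4.18, 0.711, 0.883 and 0 CPM. HET replicates 1 to 3 were above every WT library, and the groups overlapped only through HET replicate 4 and WT replicate 1. Counting error did not part these: the 95% Poisson interval was 1.39 to 3.94 CPM in HET replicate 4 and 3.04 to 5.61 CPM in WT replicate 1. The 0 in WT replicate 4 allows up to 0.313 CPM by the limit of 3 counts, or 0.385 CPM by the same Poisson interval.

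The mean of S1pr2 was 14.1 ± 10.2 CPM (SD, n = 4) for HET, against 1.44 ± 1.86 CPM (SD, n = 4) for WT. The log2 fold change in edgeR was 3.26 ± 1.0 (SE; 95% interval 1.05 to 5.47), an estimated 9.57-fold higher level in HET with an interval of 2.06 to 44.3. The unadjusted p was 0.00799, and 185 genes had a lower p. After adjustment over 12744 genes p was 0.547 in edgeR and 0.255 in DESeq2. With each library left out in turn, the log2 fold change lay between 2.74 and 4.72 (the latter without WT replicate 1), and the unadjusted edgeR p between 0.000378 and 0.0291. With limma on log2(TPM + 1) of the TPM that the authors deposited, a scale that understates the change of low genes, the log2 difference was 1.90. The relative spread was large within both groups, with a coefficient of variation of 72.2% in HET and 129% in WT.

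GC markers summed to 221, 251, 239 and 249 CPM in HET replicates 1 to 4 and to 238, 172, 182 and 138 CPM in WT replicates 1 to 4. In WT, replicate 1 was highest and replicate 4 lowest both by S1pr2 and by GC markers. WT replicates 2 and 3 had 7 S1pr2 counts each, so that their order by S1pr2 rests on library depth. HET replicate 2 was highest by both measures. HET replicate 4 had the lowest S1pr2 of its group beside a GC sum near the highest. Most of that sum was Mki67 (84.6 CPM, its highest value in any library) and Lmo2 (74.9 CPM). Single markers differed there, with Fas at its highest (17.1 CPM) and Neil1 at its lowest within HET (18.8 CPM). Mki67 also varied within WT, from 73.8 CPM in replicate 1 to 10.4 CPM in replicate 4. The part of GC cell content in the S1pr2 values was not tested. Natural killer (NK) cell markers summed to 207, 209, 167 and 59.6 CPM in HET replicates 1 to 4 and to 57, 110, 106 and 40.5 CPM in WT replicates 1 to 4. Within HET, the library with the lowest S1pr2 thus also had the lowest NK sum, and HET replicate 2, with the highest S1pr2, had the highest T cell sum (835 CPM) and the highest NK sum. WT replicate 1 had the highest S1pr2 of its group beside an NK sum of 57 CPM, below WT replicates 2 and 3. The part of T and NK cell RNA in the S1pr2 values was not tested. In such bulk libraries, more cells with S1pr2 and more S1pr2 RNA per cell cannot be told apart.

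**Figure D2:**
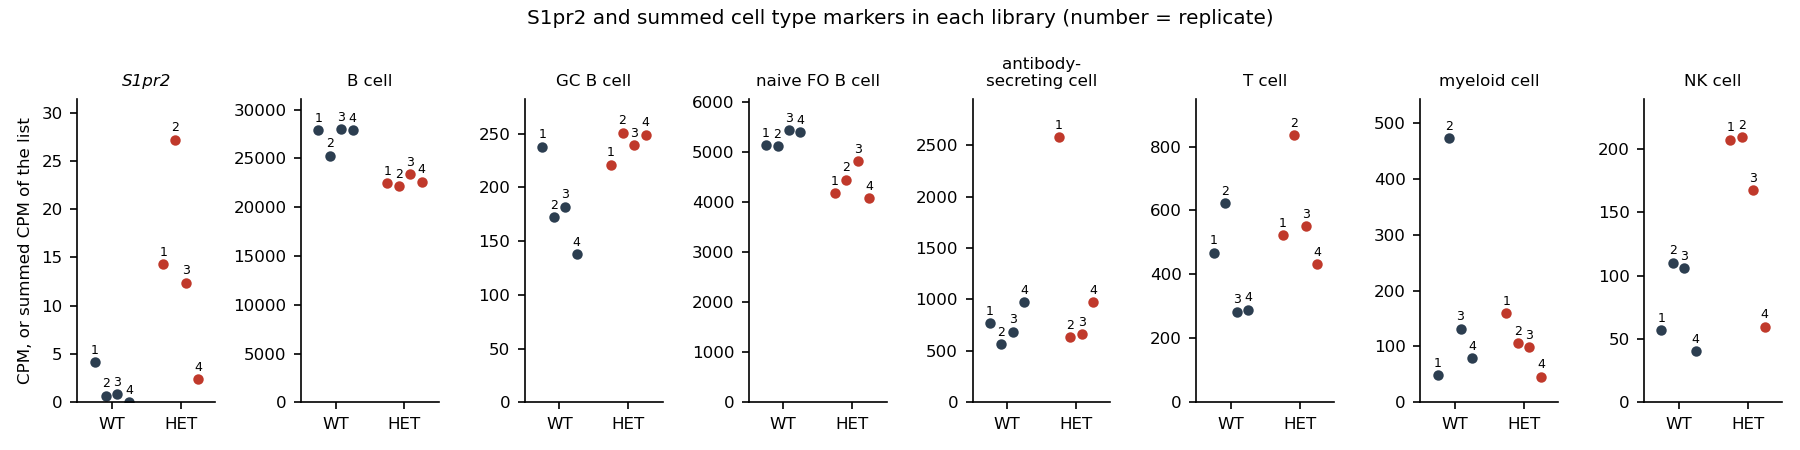
S1pr2 in CPM and summed CPM of 7 marker lists (vertical axes, linear, each on its own scale) in the WT and HET libraries, numbered by replicate. HET replicate 4 has a GC marker sum of 249 CPM, of which Mki67 is 84.6 CPM and Lmo2 74.9 CPM. Its S1pr2 level is 2.43 CPM and its NK marker sum 59.6 CPM.

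The 3 genes whose levels over the 8 libraries were most like that of S1pr2, by the Pearson correlation of log2 CPM, were Daglb (r = 0.97), which encodes a diacylglycerol lipase, Pkmyt1 (r = 0.96), an inhibitory kinase of the cell cycle, and Atp5j (r = 0.94), a subunit of mitochondrial ATP synthase. Their Spearman correlations were 0.90, 0.98 and 0.88. In all, 20 genes had an r over 0.9. The 8 points come from only 2 pools of cells and are given as a description.

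The genes that carry the S1PR2 signal into the cell were measured at far higher levels, on average 31.4 TPM for Gna13 and 126 TPM for Arhgef1 against 2.1 TPM for S1pr2, where TPM are counts scaled to exon length and library size. Gna13, which encodes Gα13, was at 91.3, 94.3, 104 and 91.1 CPM in HET and 92.6, 84.6, 84.1 and 99.5 CPM in WT. The ranges of the groups overlapped, and the log2 fold change was 0.08 ± 0.12 (SE; 95% interval -0.18 to 0.34; adjusted p = 0.931, edgeR). Arhgef1 was at 401, 383, 398 and 464 CPM in HET and 472, 439, 484 and 524 CPM in WT. HET replicates 1 to 3 were below every WT library, and HET replicate 4 lay within the WT range.

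The mean of Arhgef1 was 411 ± 36.2 CPM (SD, n = 4) for HET, against 480 ± 35 CPM (SD, n = 4) for WT, with a log2 fold change of -0.22 ± 0.09 (SE; 95% interval -0.42 to -0.03). The unadjusted edgeR p was 0.0278 and the adjusted p 0.617. In 3 of the 8 fits with a library left out, those without HET replicate 4, WT replicate 1 or WT replicate 2, the unadjusted p stayed under 0.05; it reached 0.0919 without WT replicate 4. Within the S1PR2 pathway, the receptor and the exchange factor therefore had estimates of opposite sign, and neither passed the adjusted threshold.

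S1pr4, the other S1P receptor of the set and a receptor of hematopoietic cells, was at 220, 187, 236 and 227 CPM in HET and 210, 264, 195 and 231 CPM in WT. The groups were interleaved, and the log2 fold change was -0.05 ± 0.12 (SE; 95% interval -0.30 to 0.20; adjusted p = 0.960, edgeR). Per exon length, S1pr4 made up 48.5 to 61.1% of the summed TPM of the S1P receptor family in each library, and S1pr1, the receptor of egress into lymph, 36.7 to 50.5%. S1pr2 made up 0 to 2.11% of the family. In HET replicate 2, where its share was highest, S1pr2 stood at 7.49 TPM beside 172 TPM of S1pr4 and 170 TPM of S1pr1.

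Gnai2, the Gαi subunit that couples the attractant receptors to motility, was at 317, 276, 265 and 199 CPM in HET and 251, 274, 267 and 243 CPM in WT. HET replicates 1 and 2 lay above all WT libraries, replicate 2 only just (276 against 274 CPM), and HET replicate 4 lay below them. HET thus spread more (coefficient of variation 18.5%) than WT (5.6%) around nearly the same mean. The log2 fold change was 0.03 ± 0.13 (SE; 95% interval -0.24 to 0.30; adjusted p = 0.977, edgeR).

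Among the attractant receptors, Cxcr5 was the only one with an unadjusted edgeR p under 0.05. It was at 366, 278, 357 and 323 CPM in HET replicates 1 to 4 and at 286, 247, 287 and 278 CPM in WT. HET replicates 1, 3 and 4 were above every WT library, while HET replicate 2 lay within the WT range. The means were 331 ± 40.2 CPM (SD, n = 4) and 274 ± 18.8 CPM (SD, n = 4), and the log2 fold change was 0.27 ± 0.10 (SE; 95% interval 0.05 to 0.50; unadjusted p = 0.0218; adjusted p = 0.602, edgeR). The unadjusted p was under 0.05 in 5 of 8 fits with a library left out. It was not so without HET replicate 1, HET replicate 3 or WT replicate 2, the last giving 0.0653.

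Ccr7, the receptor for the T cell zone chemokines, was at 294, 351, 298 and 285 CPM in HET and 345, 361, 285 and 284 CPM in WT. Both groups held high and low libraries, and the log2 fold change was -0.05 ± 0.11 (SE; 95% interval -0.29 to 0.18; adjusted p = 0.956, edgeR). Gpr183 was at 220, 234, 215 and 188 CPM in HET and 218, 199, 224 and 257 CPM in WT. Its log2 fold change was -0.07 ± 0.11 (SE; 95% interval -0.30 to 0.17; adjusted p = 0.934, edgeR). For both genes the interval stayed well under a doubling in either direction. It covers only the spread between aliquots of 1 pool per group and sets no limit on a difference between mice or pools.

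Cxcr4, the dark zone receptor, was at 41.5, 51.9, 44.2 and 35.2 CPM in HET and 44.1, 54.1, 53.9 and 52.7 CPM in WT. WT replicates 2 to 4 were above all HET libraries, and WT replicate 1 lay apart from these, among the HET values. The log2 fold change was -0.24 ± 0.18 (SE; 95% interval -0.62 to 0.13; unadjusted p = 0.187; adjusted p = 0.816, edgeR).

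Ccr6, the CCL20 receptor that is known from activated B cells and the memory precursors of the GC, was at 96.9, 121, 127 and 120 CPM in HET and 153, 92.4, 73.8 and 55.6 CPM in WT. The WT libraries ran from below to above the whole HET range, with a coefficient of variation of 45.1% in WT and 11.5% in HET. The log2 fold change was 0.31 ± 0.25 (SE; 95% interval -0.23 to 0.85; unadjusted p = 0.238; adjusted p = 0.844, edgeR). The size of this value moved with single WT libraries. Without WT replicate 1, which had the highest Ccr6, the log2 fold change was 0.65 (unadjusted p = 0.00308; adjusted p = 0.395, edgeR), and without WT replicate 4 it was 0.13 (unadjusted p = 0.561, edgeR).

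WT replicate 1 also bore on the overlap of the groups. Without it, the groups did not overlap for S1pr2, Cxcr4 and Ccr6, beside 8.42% of all genes tested in that comparison, and 4 of the 10 genes had an unadjusted p under 0.05, beside 7.22% of all genes in that fit. Without HET replicate 4, the groups did not overlap for S1pr2 and Arhgef1, beside 7.82% of all genes.

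**Figure D3:**
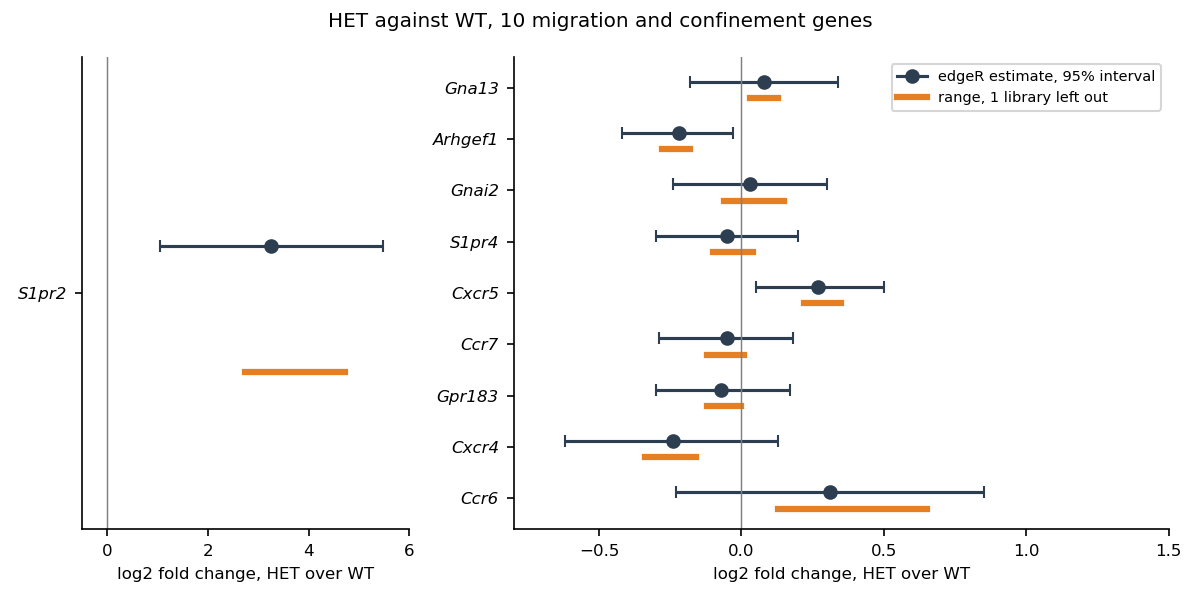
Log2 fold change of HET over WT (horizontal axis) for each gene, with the edgeR estimate and its 95% interval (dark point and bar) and the range of estimates when each library was left out in turn (orange bar); S1pr2 has its own axis. The intervals of S1pr2 (1.05 to 5.47), Cxcr5 (0.05 to 0.50) and Arhgef1 (-0.42 to -0.03) lie to a side of 0, and the other 7 include it.

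Levels of different genes were compared as TPM computed from the counts over the annotated exons of each gene. Ccr7 was highest at 345 TPM on average over the 8 libraries (304 to 399), followed by S1pr4 (202 TPM), Cxcr5 (198), Gpr183 (165), Gnai2 (151), Arhgef1 (126), Ccr6 (98.4), Cxcr4 (57), Gna13 (31.4) and S1pr2 (2.1). Of the 9 pairs of neighbours in this order, 3 were separated in range over all libraries: Ccr7 above S1pr4, Cxcr4 above Gna13, and Gna13 above S1pr2. The ranges of all other neighbours overlapped. In HET the order was the same except that Cxcr5 stood above S1pr4. The order in the middle depended on the gene length used, and Ccr7 came after S1pr4, Arhgef1 and Gnai2 in the TPM values that the authors deposited, whose lengths include introns.

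**Figure D4:**
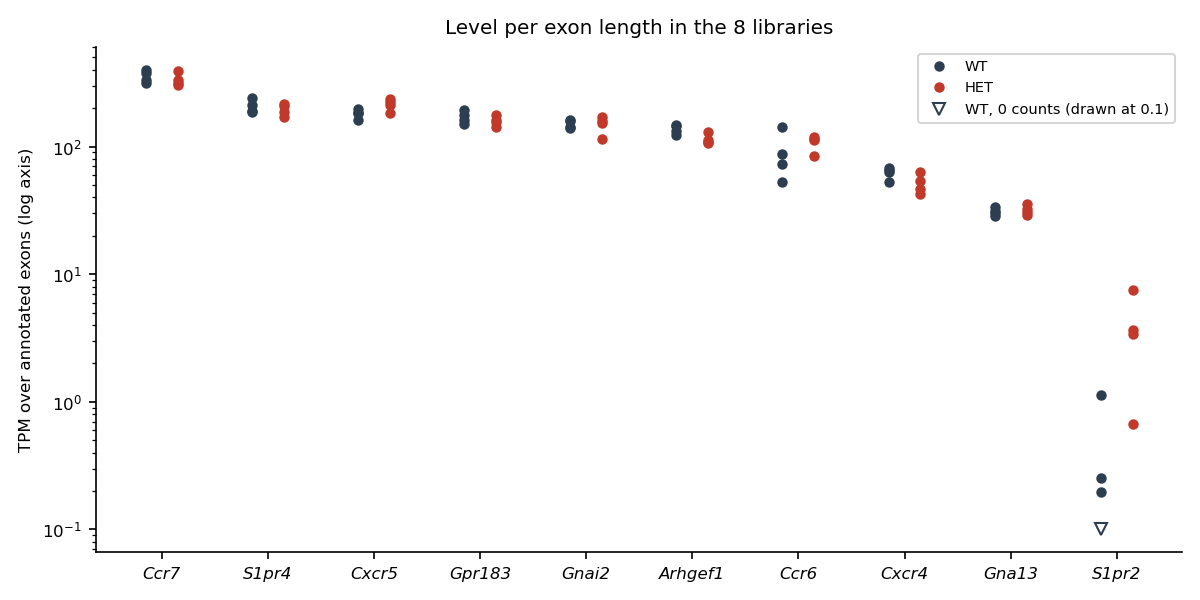
TPM over annotated exons (vertical axis, logarithmic) of the 10 genes in each WT and HET library, in order of the mean. Ccr7 (304 to 399 TPM) lies above all others, and S1pr2 lies at 0 to 7.49 TPM; its WT library with 0 counts is drawn as an open triangle at 0.1.

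The 7 receptors of the set were also set beside other listed chemoattractant receptors, a share that depends on the receptors listed and on the gene length used. Of the TPM summed over 35 such receptors, the 7 held 55.7 to 61.1% in each library, with Ccr7 alone at 17.6 to 21.7%. The sum over all 35 was 1792 ± 120 TPM in HET, against 1822 ± 64.5 TPM in WT (SD, n = 4 each). S1pr2 held at most 0.392% of the sum in HET and at most 0.0607% in WT. Outside the set, Gpr18 (15 to 20.1%) and S1pr1 (7.23 to 10.5%) held the largest shares.

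The balance between receptors was read within each library as a difference of log2 TPM. Cxcr5 minus Ccr7 was -0.44, -1.09, -0.49 and -0.57 in HET replicates 1 to 4 and -1.02, -1.30, -0.74 and -0.78 in WT replicates 1 to 4, so that Ccr7 exceeded Cxcr5 in every library. The mean was -0.65 ± 0.30 in HET, against -0.96 ± 0.26 in WT (SD, n = 4 each). Cxcr5 minus Gpr183 averaged 0.42 ± 0.25 in HET, against 0.09 ± 0.12 in WT (SD, n = 4 each). Cxcr5 minus Cxcr4 averaged 2.06 ± 0.36 in HET, against 1.54 ± 0.21 in WT (SD, n = 4 each), corresponding to 4.18 and 2.91 Cxcr5 transcripts per Cxcr4 transcript. In all of these balances HET replicates 1, 3 and 4 were above every WT library and HET replicate 2 lay among the WT values, which is also where its Cxcr5 level lay. For the G proteins, Gna13 minus Gnai2 averaged -2.22 ± 0.28 in HET, against -2.29 ± 0.20 in WT (SD, n = 4 each), a difference of 0.07 that was smaller than either SD. These balances reuse the counts above and were not tested.

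Around the 10 genes, 78 of 104 listed genes of the same pathways could be tested. None passed the adjusted threshold in edgeR, and DESeq2 called 2, beside 0.687% of all genes. At an unadjusted edgeR p under 0.05, 2 were higher and 7 lower in HET, beside 3.34% and 3.88% of all genes. Of the 78, 30 had a positive and 48 a negative log2 fold change, with a median of -0.05, beside 6356 positive and 6388 negative over all 12744 genes. Among 22 other chemoattractant receptors, 14 other G protein subunits and 9 genes of ligand synthesis and degradation, none reached an unadjusted p under 0.05. The last list was tested for enzymes and transporters only. Of its chemokines, Cxcl13 (at most 16 counts in a library) did not pass the filter on low counts. Cxcl12, Ccl19 and Ccl20 were not among the symbols counted.

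In the Gi motility and desensitisation arm, the Gαi effectors and regulators that Gnai2 serves, 1 of 26 genes was higher and 3 were lower at an unadjusted p under 0.05 (3.34% and 3.88% of all genes), and the median log2 fold change was -0.07. Rac1, the GTPase of leading edge protrusion, was at 357 to 397 CPM in HET and 273 to 344 CPM in WT (log2 fold change 0.26 ± 0.09 SE; unadjusted p = 0.0142; adjusted p = 0.576, edgeR). Pik3cg, the Gβγ-activated PI3 kinase, was at 26 to 36.7 CPM in HET and 34.6 to 70 CPM in WT (log2 fold change -0.71 ± 0.23 SE; unadjusted p = 0.00718; adjusted p = 0.527, edgeR).

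Of 7 regulators linked to B cell position, 1 was higher and 4 were lower at an unadjusted p under 0.05 (3.34% and 3.88% of all genes), with -0.33 as the median log2 fold change. Klf2, the factor that maintains S1pr1 in resting lymphocytes, was at 133 to 190 CPM in HET and 219 to 300 CPM in WT. The groups did not overlap, and the log2 fold change was -0.62 ± 0.14 (SE; unadjusted p = 0.000725; adjusted p = 0.234 in edgeR and 0.0159 in DESeq2). Tbx21, which encodes T-bet, a factor of activated B cells and also of T and NK cells, was at 10.8 to 22.9 CPM in HET and 1.15 to 8.2 CPM in WT, with a log2 fold change of 2.12 ± 0.56 (SE; unadjusted p = 0.00209; adjusted p = 0.333 in edgeR and 0.031 in DESeq2). These were the 2 genes that DESeq2 called. Klf2 is also part of the naive follicular marker list, which was lower in HET as a whole. The T and NK marker sums given above stand beside the Tbx21 values, and their part in them was not tested.

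**Figure D5:**
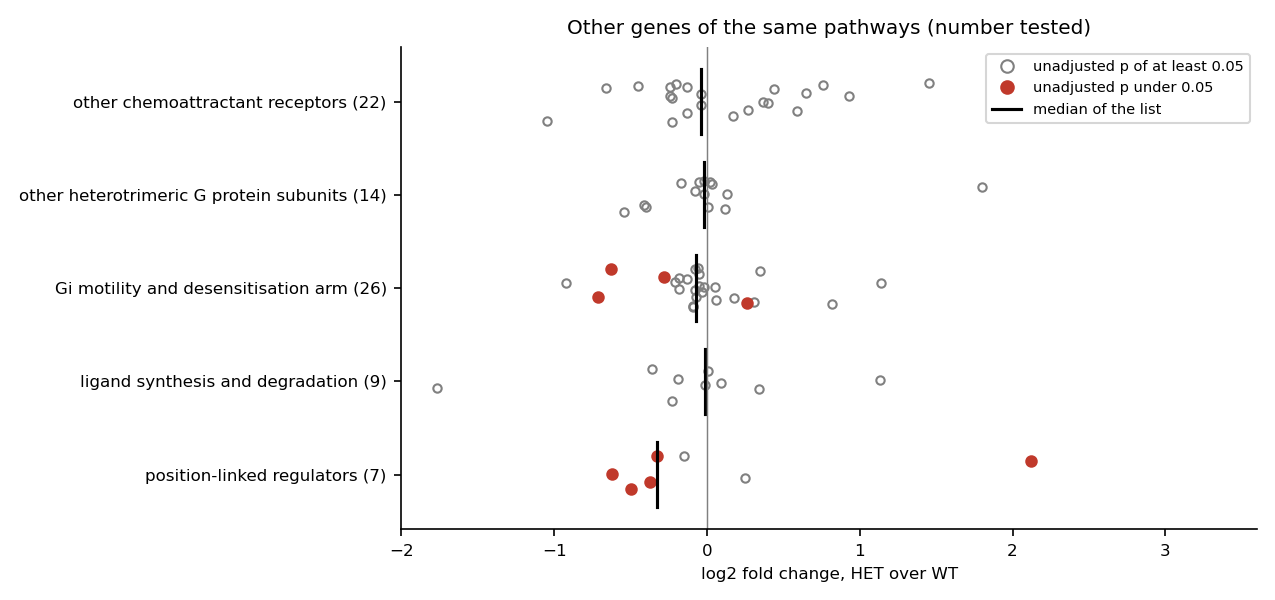
Log2 fold change of HET over WT (horizontal axis) for each tested gene of 5 lists around the set; filled points have an unadjusted edgeR p under 0.05 and vertical bars are list medians. The regulators linked to position have 1 filled point at 2.12 (Tbx21) and 4 below 0. The lists of receptors, of G protein subunits, and of ligand synthesis and degradation have none.

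The genes lie at single loci of GRCm38 (GENCODE M21), written as chromosome, start and end: S1pr2 at 9, 20962361 to 20976781, Gna13 at 11, 109362831 to 109401369, Arhgef1 at 7, 24902912 to 24926594, Gpr183 at 14, 121952551 to 121965195, and Cxcr4 at 1, 128588199 to 128592293. Cxcr5 lies at 9, 44511787 to 44561877, Ccr7 at 11, 99144196 to 99155077, Ccr6 at 17, 8236043 to 8257141, S1pr4 at 10, 81497747 to 81500132, and Gnai2 at 9, 107614125 to 107635367. S1pr2, Arhgef1, Cxcr4, Ccr7, Ccr6 and S1pr4 overlap no other annotated gene. Exons of Cxcr5 overlap those of Bcl9l on the opposite strand (at most 536 counts in a library), and exons of Gna13 overlap those of the antisense gene Gm11696 (at most 213 counts). Gpr183 lies within Ubac2 on the opposite strand (at most 852 counts) and Gnai2 overlaps Gm19721 (at most 13 counts), without shared exons. Since the strand setting of the counting was not stated, it is not known how reads within the overlapping exon stretches were assigned. Reads outside these stretches are not affected.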

How the data were processed

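Per the study's methods and the submitters' processing notes, SMART-Seq2 libraries were aligned to GRCm38 (mm10) with HISAT2 2.2.1 and reads were counted per gene with HTSeq. The authors deposited raw read counts (24259 symbols) and TPM (24232 symbols). In 97.8% of 8919 genes the deposited TPM equals the counts over the mean genomic span of the annotated transcripts, introns included (within 0.02 on the log2 scale; exon union 1.2%). Levels between genes were therefore recomputed over the union of exons (GENCODE M21). This was decided after the data were seen.

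Counts were filtered (filterByExpr), scaled by TMM and tested in R 4.3.3 with edgeR 4.0.16 (robust quasi-likelihood F-test, group as the only factor, Benjamini-Hochberg adjustment over 12744 genes). SE is the log2 fold change over the square root of F. Intervals for counts are exact Poisson and, without molecular identifiers, cover counting error only; floors are 3 counts. Scripts were tested on simulated data. Members and lists were chosen with earlier results of these data known. All 10 members were named, and for each pathway list the gene of lowest unadjusted p under 0.05 in each direction. Bcl6 and the chemokines that were not tested were named outside this rule. The 3 genes most like S1pr2 were taken among tested genes whose log2 CPM (prior count 2) averaged 2 or more. Alternatives were DESeq2 1.42.0, RLE scaling, other filters, a replicate block, limma 3.58.1 on log2 of the deposited TPM, immunoglobulin genes left out, and libraries left out. Some genes and a pathway list named at the outset are not reported here.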

Additional observations from a re-analysis of the deposited data

Results flagged for a closer look

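Over the 20 sets of 4 libraries examined (10 genes in 2 groups), 1 held a library far from the others, where chance gives about 1 in 20. Cxcr4 in WT replicate 1 was 44.1 CPM and the rest of WT lay between 52.7 and 54.1 CPM, a gap of 0.866 of the group's range, above Dixon's 95% critical value.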

How the results depend on the processing

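None of the 10 genes passed the adjusted threshold under any alternative, and of 180 recomputed fold changes 171 kept their direction. The 9 that turned were near 0 and past no threshold: Gpr183 (0.00 without WT replicate 4; -0.12 to 0.00 with a library left out), Ccr7 (0.01 without WT replicate 2; -0.12 to 0.01), S1pr4 (0.02 without HET replicate 2 and 0.04 without WT replicate 2; -0.10 to 0.04) and Gnai2 (-0.06 without HET replicate 1; -0.06 to 0.15; -0.04 in all 3 limma fits on TPM, and -0.10 without HET replicate 1 and WT replicate 4 together, a fit added after seeing the data). The unadjusted p was under 0.05 in 18 of 18 alternatives for S1pr2, in 11 for Cxcr5 and in 12 for Arhgef1. The S1pr2 log2 fold change, 3.26, was 1.90 in limma with log2(TPM + 1), with or without the TPM filter, and 3.33 with log2(TPM + 0.1). The count of members with an unadjusted p under 0.05, 3 with all libraries, ranged from 1 to 4 with a library left out. Over all genes, the share in those fits was 6 to 8.33%. The count was 1 (S1pr2) without HET replicate 1 and WT replicate 4 together. Members without overlap of the groups, 0 with all libraries, ranged from 0 to 3 with a library left out. Over all genes, the share without overlap was then 7.26 to 9.18%, against 1.99% above and 2.62% below with all libraries. Over all genes, the 3 calls became 95 with DESeq2, 38 with no filter, 7 with a mean of at least 50 counts, 0 with the replicate block, 1 with log2(TPM + 0.1), 0 with log2(TPM + 1), 0 with a mean TPM of at least 1, and 1 to 6 with a library left out; the cause was not tested. Same-numbered libraries did not deviate together (correlations -0.0511 to 0.0129, and 1 of 4 numbers correlated best with its own), so the replicate block, under which S1pr2 had a log2 fold change of 3.82 (edgeR adjusted p = 0.299) and 3 genes an unadjusted p under 0.05, pairs libraries by number only. In the order of levels, 3 separated neighbours became 4 with the deposited TPM or the longest transcript. Low counts limit S1pr2 most, with 0 to 44 counts in WT.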
